A study of Mus musculus with 56 samples.

Results

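The 6 genes Stmn2, Unc13a, Elavl3, Sort1, Nrxn3 and Nlgn1 were followed as neuronal RNA targets of TDP-43, an RNA-binding protein whose mutation causes amyotrophic lateral sclerosis (ALS). They were given as a list of names, which was matched to Ensembl gene identifiers by mouse symbol. The matching used no measured value, but the list was drawn up with earlier results of these data known. All 6 were found among 43629 genes in the files, and all 6 were among the 18838 genes that passed the filter on low counts. The libraries came from mouse spinal cord and measured RNA by sequencing. In motor neuron translating ribosome affinity purification (MN-TRAP), ribosomes tagged with EGFP-L10a were pulled down from Chat-expressing neurons, and the RNA bound to them was sequenced. RNA of the spinal cord lysate from before the pull-down, called whole cord below, was sequenced beside it. The study asked which RNAs change in motor neurons between the time before motor symptoms and their onset.

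All mice, controls included, carried the Chat bacTRAP transgene (line DW167), which places EGFP-L10a under the Chat promoter. The hTDP-43 A315T mice carried in addition the human mutant transgene (line 95Balo/J), and the hTDP-43 WT mice the human wild-type transgene (line 3cPtrc/J), both driven by the prion promoter, which is active in many cell types. The Chat bacTRAP mice carried no TDP-43 transgene. Mice were 9 or 14 weeks old and, according to the results text of the paper, female. At 9 weeks there were 5 MN-TRAP and 5 cord libraries of hTDP-43 A315T, 3 and 6 of hTDP-43 WT, and 4 and 6 of Chat bacTRAP. At 14 weeks there were 4 MN-TRAP and 4 cord libraries of hTDP-43 A315T, 5 and 5 of hTDP-43 WT, and 4 and 5 of Chat bacTRAP. The labels name the cervical cord, the Methods the spinal cord. In the paper, part of the cleared cord lysate of each sample was kept as input control, so cord libraries share animals with MN-TRAP libraries. The labels do not tie the libraries of an animal to each other. They were fitted as independent, so that p-values measure the spread between these 56 libraries. A Chat promoter is also active in cholinergic neurons other than motor neurons.

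TDP-43 is a mostly nuclear protein that binds UG-rich stretches of RNA, many of them in long introns of neuronal genes, and it governs splicing, polyadenylation and stability of these RNAs. When TDP-43 leaves the nucleus in human neurons, hidden exons enter the STMN2 and UNC13A messages and the full-length RNAs fall, but the sequences of those exons are not conserved in the mouse. In mouse tissue TDP-43 acts on these genes in other ways, such as on an alternative exon of Sort1 and on long pre-mRNAs such as those of Nrxn3 and Nlgn1. The values below are reads per gene. They cannot show which exons were used.

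The roles of the 6 genes differ. Stmn2 encodes stathmin-2, a tubulin-binding protein of growing and regenerating axons. Unc13a encodes Munc13-1, which primes synaptic vesicles for release. Elavl3 encodes the neuronal RNA-binding protein HuC. Sort1 encodes sortilin, a sorting receptor that binds progranulin and pro-neurotrophins. Nrxn3 and Nlgn1 encode neurexin-3 and neuroligin-1, partner classes of adhesion proteins on the 2 sides of the synapse.

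The genes lie, in GRCm38 with the GENCODE M21 annotation, at chr3:8509360-8561606 on the plus strand (Stmn2), chr8:71624417-71671757 on the minus strand (Unc13a), chr9:22015005-22052023 on the minus strand (Elavl3), chr3:108284082-108361511 on the plus strand (Sort1), chr12:88722876-90334935 on the plus strand (Nrxn3) and chr3:25426215-26332460 on the minus strand (Nlgn1). Their spans run from 37.0 kb (Elavl3) to 1612 kb (Nrxn3), against a median of 24.2 kb over 15904 protein-coding genes tested. Nrxn3 was longer than 99.9% and Nlgn1 (906 kb) longer than 99.5% of those genes. Exons made up 0.782% of the Nrxn3 span and 1.48% of that of Nlgn1, but 26.7% of that of Unc13a. Unc13a overlaps Colgalt1 and Nlgn1 overlaps A830092H15Rik on the other strand, and the library kit named in the labels does not mark strand, so reads from the shared parts of these pairs cannot be told apart.

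Because TDP-43 recognizes UG repeats, the GT-rich stretches of the spliced messages are shown first. In the longest protein-coding transcript of each gene, GTGTGT and TGTGTG were counted on the transcript strand with overlaps, and the 30 bases around the longest run of alternating G and T are printed 5′ to 3′ with that run in capitals. The run lies in the 3′ UTR of 5 genes and in the 5′ UTR of Nlgn1.
Stmn2 at chr3:8560818-8560847, plus strand: gatcgtgggtacTGTGTGTccatgtgaacc
Unc13a at chr8:71628386-71628415, minus strand: ctctgcacaTGTGTGTGTGTGgctgtgtgt
Elavl3 at chr9:22017418-22017447, minus strand: aaaaccatgtgaTGTGTGaaatgcactgtg
Sort1 at chr3:108360891-108360920, plus strand: ctttatatataTGTGTGTGTacatatatac
Nrxn3 at chr12:90332960-90332989, plus strand: gttctgaccaGTGTGTGTGTaactttccaa
Nlgn1 at chr3:26133888-26133917, minus strand: gcggcatctgtcTGTGTGaaatcaatggga

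Unc13a held the longest run of the 6 with 12 bases, as long or longer in 7.47% of the 15904 genes, followed by Nrxn3 with 10 bases (11.4%) and Sort1 with 9 bases (16.8%). The run of Stmn2 was 7 bases long (51.2%), and those of Elavl3 and Nlgn1 were 6 bases (79.2%, which is every gene with at least 1 site). Sites per kilobase of transcript were 1.76 in Unc13a, 1.51 in Nrxn3, 1.17 in Sort1, 0.965 in Stmn2, 0.254 in Nlgn1 and 0.199 in Elavl3, against a median of 0.855. A match is a description of these letters and not of binding, and introns, which hold most known sites, were not searched.

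The alternative Sort1 exon is shown because TDP-43 is known to act on its inclusion. It is exon 18 of 21 in transcript Sort1-203 and is absent from Sort1-201, which has 20 exons. The exon lies at chr3:108355472-108355570 on the plus strand and has 99 bases, which keep the reading frame and code for 33 residues: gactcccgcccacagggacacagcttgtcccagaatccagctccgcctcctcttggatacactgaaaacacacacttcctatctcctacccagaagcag. It holds no GTGTGT or TGTGTG and makes up 1.31% of the exon bases of Sort1. Its inclusion would therefore hardly alter the count of the gene, and the Sort1 values below do not speak to it.

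Total counts ran from 0.472 M (mega) to 256 M (median 19.6) in the 25 MN-TRAP libraries and from 17.5 M to 86.7 M (median 40.4) in the 31 cord libraries. The MN-TRAP fraction held the markers of the labelled cell type: all 6 motor neuron markers were higher than in cord in each genotype, with Chat, the enzyme of acetylcholine synthesis, higher by 2.79 ± 0.29 on the log2 scale in hTDP-43 A315T. Glial RNA remained in it. Gfap of astrocytes averaged 253 CPM (counts scaled to the library total) and Mbp of oligodendrocytes 1013 CPM, against 1276 and 5389 in cord. Averaged over 28 markers of glia and endothelium, log2 CPM ran from 3.44 to 4.29 in the 9 MN-TRAP libraries of hTDP-43 A315T and from 3.67 to 6.55 in the other 16. Another 7 MN-TRAP libraries stood apart in other ways, all of them controls. Replicate 5 of hTDP-43 WT at 14 weeks, replicate 3 of hTDP-43 WT at 9 weeks and replicate 4 of Chat bacTRAP at 9 weeks held reads of Lamr1-ps1 (1.11 to 1.69 CPM), a pseudogene that was at 0.480 to 2.93 CPM in the 18 hTDP-43 A315T libraries and at most 0.0398 in the other 35 controls. Replicate 4 of Chat bacTRAP at 14 weeks held Y-linked reads. That library, replicate 2 of its group, replicate 1 of hTDP-43 WT and replicate 3 of Chat bacTRAP at 9 weeks held under 5 M counts. Mitochondrially encoded RNA exceeded 5% in 2 more, replicate 1 of Chat bacTRAP (5.81%) and replicate 2 of hTDP-43 WT (5.58%) at 14 weeks. Many of the calls that depended on these libraries are given below with and without them.

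The members covered a wide range of levels. Compared per length, as CPM per kilobase of exons (CPM/kb), the mean over MN-TRAP libraries was 637 ± 171 for Stmn2 (SD, n = 25), 41.8 ± 12.2 for Elavl3, 19.5 ± 4.81 for Sort1, 8.35 ± 3.38 for Nrxn3, 2.41 ± 1.04 for Unc13a and 2.10 ± 0.638 for Nlgn1. In cord the means were 143 ± 12.7 for Stmn2 (n = 31), 52.4 ± 7.07 for Elavl3, 34.4 ± 3.47 for Sort1, 12.5 ± 3.15 for Nrxn3, 4.45 ± 0.996 for Unc13a and 1.69 ± 0.379 for Nlgn1. The order of the genes was the same in both fractions, with Unc13a and Nlgn1 closer than their SD in MN-TRAP. Stmn2 ranked between place 55 and place 95 of 18701 genes in the MN-TRAP groups and between 245 and 278 in the cord groups, whereas Unc13a and Nlgn1 ranked between places 8091 and 10233 in MN-TRAP. The lowest raw counts were 8 for Unc13a and 9 for Nlgn1, both in the library of 0.472 M counts, in which Stmn2 still had 1282.

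Normalized counts, which are reads divided by a size factor per library, were used for each gene on its own. Cord libraries varied less than MN-TRAP libraries for every member. The coefficient of variation over all libraries was 7.31% in cord and 23.7% in MN-TRAP for Stmn2, 12.4% and 27.3% for Elavl3, 10.7% and 24.8% for Sort1, 21.9% and 40.8% for Unc13a, 26.5% and 41.9% for Nrxn3, and 23.5% and 32.1% for Nlgn1.

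**Figure D1:**
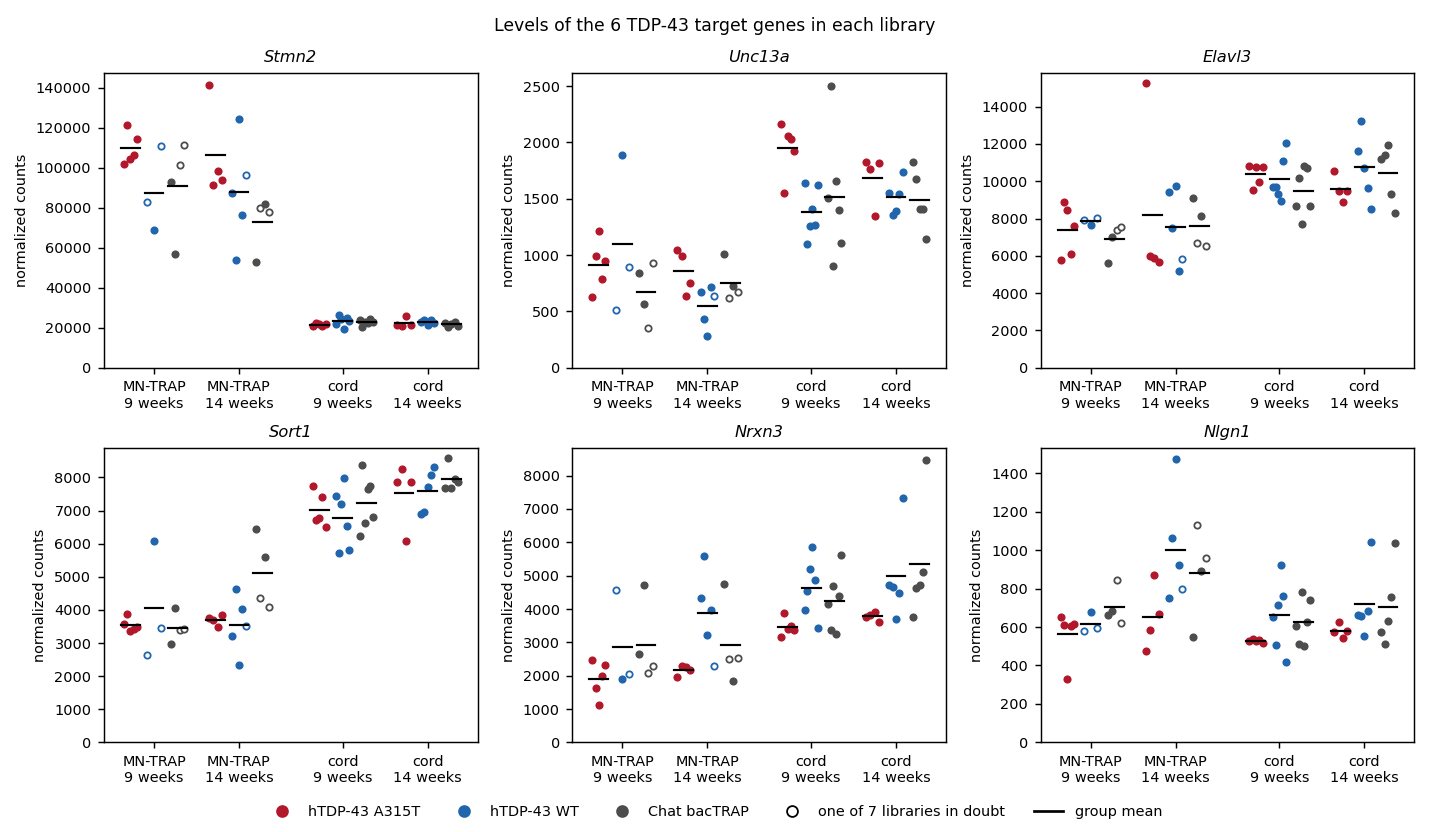
Normalized counts (y axis, linear from 0) of the 6 genes in each of 56 libraries, by fraction and age (x axis), coloured by genotype; open points are 7 MN-TRAP libraries in doubt and black lines group means. Stmn2 lies between 53060 and 141099 in MN-TRAP and between 19491 and 26418 in cord, without overlap.

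Ribosome-bound RNA of Chat-expressing neurons was first set against whole cord. Stmn2 alone was higher in MN-TRAP in all 3 genotypes, 3.85- to 5.39-fold, whereas Unc13a, Sort1 and Nrxn3 were lower in all 3. Elavl3 was lower in both control lines, and Nlgn1 passed in none by edgeR. Of 18 member and genotype combinations, 14 passed the edgeR test at an adjusted p below 0.05, over all 18838 genes, with both ages together. A change past that threshold was common in this comparison: 62.8% of all genes passed in hTDP-43 A315T, 57.7% in Chat bacTRAP and 54.4% in the hTDP-43 WT line. In these bulk libraries fewer cells of a type and less RNA per cell cannot be told apart, and the cord value is that of a mixture of all its cells.

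Stmn2 in MN-TRAP had a lowest value of 91146, a median of 104346 and a highest value of 141099 normalized counts in the 9 libraries of hTDP-43 A315T. Stmn2 in cord of that genotype ran from 20845 to 25612 (n = 9). Every MN-TRAP library of each genotype lay above every cord library. The fitted log2 difference was 2.43 ± 0.13 (SE) for the mutant line, 1.99 ± 0.12 for hTDP-43 WT and 1.95 ± 0.12 for Chat bacTRAP (edgeR, adjusted p = 9.3e-23, 3.8e-20 and 5.8e-20). In the edgeR fit of all libraries this was the only difference among the 6 genes that also exceeded 2-fold, and it did so in each genotype. By DESeq2 and with median-ratio scaling Unc13a was past 2-fold as well, at -1.03 in hTDP-43 A315T and -1.05 in Chat bacTRAP. Sort1 in hTDP-43 A315T was at -1.005 by both.

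Sort1 was lower in MN-TRAP by 0.88 ± 0.12 on the log2 scale in hTDP-43 A315T, where 3367 to 3878 normalized counts in MN-TRAP stood against 6092 to 8258 in cord without overlap. The log2 difference was -0.80 ± 0.12 for hTDP-43 WT and -0.77 ± 0.12 for Chat bacTRAP (edgeR, adjusted p = 8.3e-09, 2.2e-07 and 2.7e-07). Sortilin RNA was thus found at a level between 0.467 and 0.644 of that in cord by the ratio of group means at either age. For Unc13a the log2 differences were -0.90 ± 0.19, -0.72 ± 0.20 and -0.96 ± 0.19 in the same order (adjusted p = 5.4e-05, 0.0017 and 3.5e-05), with no overlap in hTDP-43 A315T, 629 to 1217 against 1344 to 2167. For Nrxn3 they were -0.71 ± 0.17, -0.53 ± 0.18 and -0.61 ± 0.17 (adjusted p = 0.00033, 0.010 and 0.0021), again with no overlap in hTDP-43 A315T, 1126 to 2467 against 3166 to 3904.

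Elavl3 showed the smaller differences of the genes that were lower, -0.37 ± 0.15 for hTDP-43 WT and -0.38 ± 0.14 for Chat bacTRAP (edgeR, adjusted p = 0.027 and 0.019). In hTDP-43 A315T its log2 difference was -0.22 ± 0.14 (adjusted p = 0.17). One library weighed on the last value. Elavl3 stood at 15287 in replicate 1 of hTDP-43 A315T at 14 weeks and at 5978, 5896 and 5684 in the others, and without that library the difference was -0.50 ± 0.12 (adjusted p = 3.0e-04). It passed as well with all libraries by DESeq2 and with median-ratio scaling (-0.36, 0.019 in each) and by limma-voom (-0.47, 1.2e-05), which called 76.3% of all genes in hTDP-43 A315T and 53.5% in Chat bacTRAP. Nlgn1 differed from cord by 0.25 ± 0.15, 0.29 ± 0.15 and 0.30 ± 0.15 (adjusted p = 0.14, 0.098 and 0.074), with 95% intervals of -0.04 to 0.54, -0.01 to 0.59 and 0.01 to 0.59. By limma-voom it passed in hTDP-43 A315T (0.35, 7.2e-04) and in Chat bacTRAP (0.38, 0.045).

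**Figure D2:**
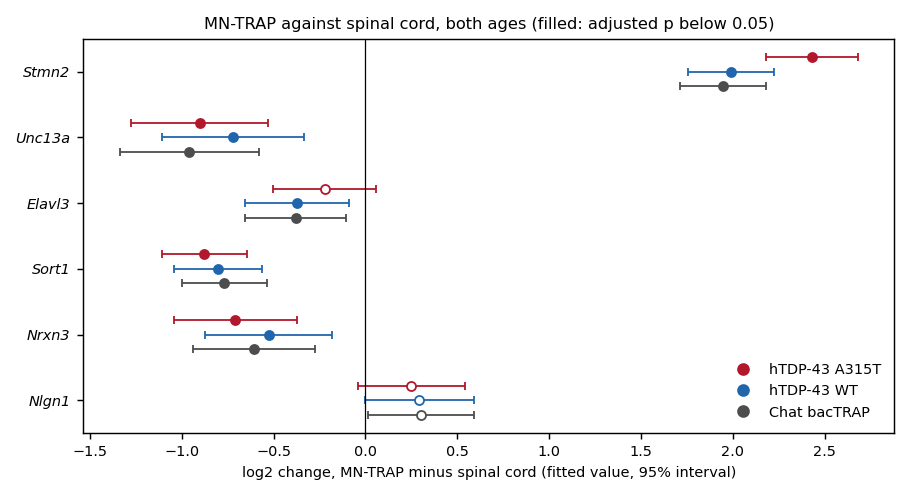
Fitted log2 difference between MN-TRAP and spinal cord (x axis) for each gene (y axis) in the 3 genotypes, with 95% intervals; filled points have an adjusted p below 0.05. Stmn2 lies at 1.95 to 2.43, the points of Unc13a, Sort1 and Nrxn3 between -0.96 and -0.53, and those of Nlgn1 at 0.25 to 0.30.

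Stmn2 and Sort1 passed in each genotype with each tool, scaling and set of libraries tried. With a minimum change of 2-fold, applied to the edgeR fit of all libraries, Stmn2 alone did. Unc13a in hTDP-43 A315T and in Chat bacTRAP and Nrxn3 in hTDP-43 A315T also passed with each tool, scaling and set of libraries. The other calls depended on the libraries in doubt, on single libraries or on the tool. Without the 7 libraries 10 combinations passed: the differences of Unc13a in hTDP-43 WT (-0.44 ± 0.23, adjusted p = 0.097), Elavl3 in hTDP-43 WT (-0.34 ± 0.20, 0.15), Elavl3 in Chat bacTRAP (-0.36 ± 0.18, 0.099) and Nrxn3 in Chat bacTRAP (-0.36 ± 0.20, 0.12) no longer did. Without the shallow libraries alone 11 passed, and those that no longer did were Elavl3 in hTDP-43 WT (-0.34, 0.069), Elavl3 in Chat bacTRAP (-0.27, 0.17) and Nrxn3 in Chat bacTRAP (-0.43, 0.051). Without the libraries with Lamr1-ps1 reads Nrxn3 in hTDP-43 WT did not pass (-0.41, 0.076), and without those high in mitochondrially encoded RNA Nlgn1 passed in Chat bacTRAP (0.39, 0.024). Single libraries decided some of the same calls in the control lines. Elavl3 in hTDP-43 WT did not pass without replicate 2 in cord or replicate 4 in MN-TRAP at 14 weeks or replicate 1 in MN-TRAP at 9 weeks (-0.32, -0.32 and -0.34, edgeR adjusted p = 0.059, 0.059 and 0.067), nor in Chat bacTRAP without replicate 1 in MN-TRAP at 9 weeks (-0.33, 0.052). Nrxn3 in hTDP-43 WT did not pass without replicate 2 in MN-TRAP at 9 weeks (-0.45, 0.056). Nlgn1 passed in hTDP-43 WT without replicate 5 in cord at 14 weeks (0.38, 0.032), and in Chat bacTRAP without replicate 5 in cord (0.36, 0.030) or replicate 1 in MN-TRAP (0.39, 0.023) of that age.

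The enrichment of Stmn2 was larger in hTDP-43 A315T than in Chat bacTRAP by 0.48 ± 0.17 and than in hTDP-43 WT by 0.44 ± 0.17 on the log2 scale, and neither difference passed (edgeR, adjusted p = 0.14 and 0.26). Both passed without the 3 control libraries with Lamr1-ps1 reads, at 0.57 ± 0.16 (adjusted p = 0.028) and 0.61 ± 0.16 (0.011). Each also passed without a single one of them, replicate 4 of Chat bacTRAP at 9 weeks (0.58 ± 0.17, 0.048) or replicate 3 of hTDP-43 WT at 9 weeks (0.58 ± 0.17, 0.028). With all libraries in the fit, 0.69% of all genes differed in enrichment between hTDP-43 A315T and Chat bacTRAP. The share was 0.648% between hTDP-43 A315T and hTDP-43 WT and 0.403% between hTDP-43 WT and Chat bacTRAP. No member differed in that fit. Shares of all genes without the libraries named above are not given here, so those passes cannot be called particular to Stmn2.

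Genotypes were next compared within MN-TRAP, which asks whether the mutant transgene moves these RNAs in motor neurons. Of 36 combinations 2 passed, both at 14 weeks and both with hTDP-43 A315T. Stmn2 was 1.58-fold higher in hTDP-43 A315T than in Chat bacTRAP, and Nrxn3 was 1.80-fold lower in hTDP-43 A315T than in hTDP-43 WT. Neither gene passed against the other control. The share of all genes that passed at 14 weeks was 13.9% for hTDP-43 A315T against Chat bacTRAP, 7.24% against hTDP-43 WT and 21.5% for hTDP-43 WT against Chat bacTRAP, and 1, 1 and 0 of the 6 members passed beside them. At 9 weeks the shares were 0.552%, 2.27% and 0.223% in the same order, and no member passed. Median-ratio scaling shifted the median of all genes from 0.09 to 0.0 in hTDP-43 A315T against Chat bacTRAP and from 0.21 to 0.09 in hTDP-43 WT against Chat bacTRAP at 14 weeks, and the share of passing genes that were higher from 57.0% to 45.4% and from 74.7% to 59.8%.

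In the libraries of hTDP-43 A315T at 14 weeks Stmn2 stood at 141099, 91146, 98341 and 93964 normalized counts. In those of Chat bacTRAP it stood at 53060, 79602, 81691 and 77728, and in those of hTDP-43 WT at 87369, 54044, 124154, 76558 and 96430. The mutant libraries lay above all of Chat bacTRAP and overlapped with hTDP-43 WT. The log2 difference was 0.66 ± 0.18 against Chat bacTRAP (edgeR, adjusted p = 0.012) and 0.26 ± 0.17 against hTDP-43 WT (0.36, 95% interval -0.07 to 0.60). At 9 weeks, before symptoms, Stmn2 stood at 101902 to 121263 in hTDP-43 A315T (n = 5), 57071 to 111330 in Chat bacTRAP (n = 4) and 68600 to 110683 in hTDP-43 WT (n = 3), and the differences of 0.32 ± 0.17 and 0.43 ± 0.19 did not pass (adjusted p = 0.47 and 0.24). The first was 0.16 (1.0) without replicate 2 of Chat bacTRAP and 0.51 (0.10) without its replicate 4.

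The Stmn2 call at 14 weeks rested on 2 libraries that were extreme in their groups. Without replicate 1 of hTDP-43 A315T (141099) the difference was 0.48 ± 0.18 (edgeR, adjusted p = 0.076), and without replicate 1 of Chat bacTRAP (53060) it was 0.55 ± 0.19 (0.068). It did not pass with MN-TRAP libraries alone in the fit (0.58 ± 0.23, adjusted p = 0.30) or with limma-voom (0.47 ± 0.16, 0.47), and under both settings 0 of all genes passed in this contrast (2042 and 1477 with an unadjusted p below 0.05). Replicate 1 of Chat bacTRAP was also the MN-TRAP library with the most glial and endothelial RNA, at a mean of 6.55 log2 CPM, with 5.81% mitochondrially encoded RNA. The MN-TRAP libraries next in glial RNA, replicate 2 of Chat bacTRAP at 9 weeks (6.35) and replicate 2 of hTDP-43 WT at 14 weeks (6.20), held 57071 and 54044 of Stmn2, and these 3 libraries were the lowest of 25 for that gene. After them in glial RNA came replicate 2 of hTDP-43 WT at 9 weeks (5.57) and its replicate 3 at 14 weeks (5.56), at places 4 and 24 for Stmn2. With the glial and endothelial level as a covariate the difference in Stmn2 was 0.51 ± 0.17 (adjusted p = 0.047). Between the control lines Stmn2 differed by 0.39 ± 0.17 (0.089), and this passed with that covariate (0.48 ± 0.15, 0.019) and without replicate 2 of hTDP-43 WT (0.53 ± 0.17, 0.018), but was 0.25 (0.32) without its replicate 3.

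Nrxn3 stood at 1955, 2300, 2272 and 2159 normalized counts in MN-TRAP of hTDP-43 A315T at 14 weeks. It stood at 4342, 5597, 3220, 3985 and 2298 in hTDP-43 WT, and at 4744, 2515, 1854 and 2543 in Chat bacTRAP. All 4 mutant libraries lay in a narrow band at the low end, while the controls spread widely, and 1 library of Chat bacTRAP, at 1854, lay below them. The log2 difference was -0.84 ± 0.24 against hTDP-43 WT (edgeR, adjusted p = 0.025) and -0.34 ± 0.26 against Chat bacTRAP (0.39, 95% interval -0.84 to 0.16). At 9 weeks the 5 mutant libraries ran from 1126 to 2467, those of Chat bacTRAP from 2095 to 4715 and those of hTDP-43 WT from 1913 to 4578, with differences of -0.61 ± 0.24 and -0.35 ± 0.27 (adjusted p = 0.27 and 0.55). The first of these was -0.26 (1.0) without replicate 2 of Chat bacTRAP. Between the control lines at 14 weeks the difference was 0.51 ± 0.24 (0.12), with 0.89 ± 0.25 (0.011) without replicate 1 of Chat bacTRAP and 0.33 ± 0.26 (0.39) without its replicate 3. Without the libraries high in mitochondrially encoded RNA it was 0.74 ± 0.26 (0.036).

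The same 3 libraries with the most glial RNA were high in Nrxn3: replicate 1 of Chat bacTRAP and replicate 2 of hTDP-43 WT at 14 weeks had the most Nrxn3 of their groups, 4744 and 5597, and replicate 2 of Chat bacTRAP at 9 weeks had 4715. Next in glial RNA came replicate 2 of hTDP-43 WT at 9 weeks and its replicate 3 at 14 weeks. They held 1913 and 3220 of Nrxn3, places 4 and 19 from the lowest of 25. With the glial and endothelial level as a covariate the difference from hTDP-43 WT was -0.51 ± 0.24 (edgeR, adjusted p = 0.27). On that covariate the mutant libraries ran from 3.79 to 4.29 and those of hTDP-43 WT from 3.90 to 6.20. It was fitted with a common slope for MN-TRAP and cord. The fit can therefore also take away part of a genotype difference, and the part of glial RNA was not tested. Without the 2 libraries above 5% mitochondrially encoded RNA it was -0.69 ± 0.23 (0.056), with MN-TRAP libraries alone -0.82 ± 0.30 (0.35), and without single libraries, replicates 1 and 4 of hTDP-43 A315T and replicate 2 of hTDP-43 WT, it was -0.81 ± 0.27 (0.086), -0.85 ± 0.27 (0.065) and -0.69 ± 0.25 (0.091). In the comparison of all libraries all 9 oligodendrocyte markers, 4 of 7 astrocyte markers and 3 of 7 interneuron markers were lower in hTDP-43 A315T, with medians of -1.76, -1.73 and -0.85. None of these markers was at 0 in every library of any group, and the part of interneuron RNA in the result was not tested. The summed oligodendrocyte markers ran at 14 weeks from 1828 to 2227 CPM for hTDP-43 A315T, 2040 to 21420 for hTDP-43 WT and 3085 to 18948 for Chat bacTRAP, and the sums of the interneuron markers from 194 to 248, 229 to 730 and 296 to 676.

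**Figure D3:**
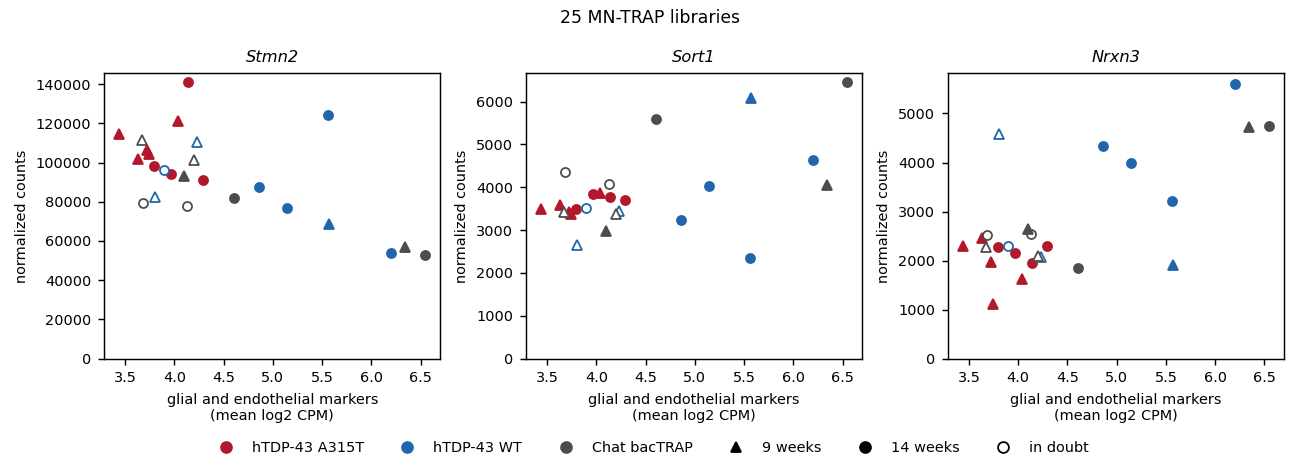
Normalized counts of Stmn2, Sort1 and Nrxn3 (y axis, from 0) against log2 CPM averaged over 28 markers of glia and endothelium (x axis) in 25 MN-TRAP libraries, coloured by genotype, with triangles at 9 weeks and circles at 14 weeks; open symbols are libraries in doubt. The 3 libraries with the most glial RNA, at 6.20 to 6.55, hold the lowest Stmn2 values, 53060 to 57071. The next in order, at 5.57 and 5.56, hold 68600 and 124154.

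Nlgn1, the neuroligin, lay close to the threshold in the same comparison as Nrxn3. It stood at 475, 583, 873 and 670 in hTDP-43 A315T at 14 weeks, 751, 1066, 1475, 923 and 800 for hTDP-43 WT and 546, 1130, 892 and 960 for Chat bacTRAP, and 1 of 4 mutant libraries reached into the range of hTDP-43 WT. The log2 difference was -0.63 ± 0.21 (edgeR, adjusted p = 0.055). Without replicate 3 of hTDP-43 A315T (873) it was -0.80 ± 0.23 (0.029), without replicates 1 or 5 of hTDP-43 WT -0.73 ± 0.22 (0.028) and -0.68 ± 0.22 (0.032), and with the glial covariate -0.67 ± 0.24 (0.13). It passed as well without the libraries with Lamr1-ps1 reads (-0.69 ± 0.23, 0.032) and without the shallow ones (-0.64 ± 0.21, 0.042). Against Chat bacTRAP the difference was -0.31 ± 0.23 (0.37).

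Sort1 was highest of the MN-TRAP groups in Chat bacTRAP at 14 weeks, with 6456, 4349, 5590 and 4080 normalized counts. The 4 libraries of hTDP-43 A315T held 3763, 3693, 3491 and 3845, all below them, and those of hTDP-43 WT 3227, 4639, 2347, 4029 and 3506. The log2 differences were -0.37 ± 0.18 for hTDP-43 A315T and -0.41 ± 0.17 for hTDP-43 WT against Chat bacTRAP (edgeR, adjusted p = 0.15 and 0.065), and 0.04 ± 0.17 between the transgenic lines (0.91, 95% interval -0.28 to 0.37). These calls turned on the scaling. With median-ratio scaling the differences from Chat bacTRAP were -0.47 ± 0.17 (adjusted p = 0.047) and -0.53 ± 0.16 (0.014), and DESeq2 gave -0.48 ± 0.16 (0.026) and -0.53 ± 0.15 (0.0060). Both also passed without the shallow libraries, at -0.63 ± 0.18 (0.0080) and -0.67 ± 0.17 (0.0032). The second passed as well without replicate 2 (-0.51, 0.028) or 4 (-0.47, 0.050) of hTDP-43 WT, or replicate 2 (-0.50, 0.036) or 4 (-0.51, 0.029) of Chat bacTRAP. Replicate 1 of Chat bacTRAP, with 6456, moved both the other way, to -0.21 (0.51) and -0.26 (0.29) without it.

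That library had the most glial RNA of the 25, and the 4 with the most glial RNA held places 25, 19, 22 and 24 for Sort1, counted from the lowest. Next in order, replicate 3 of hTDP-43 WT at 14 weeks (5.56 log2 CPM) held place 1 with 2347, and replicate 4 of that group (5.15) place 18. Sort1 was also higher in cord than in MN-TRAP, and the source of its RNA in the MN-TRAP libraries was not tested. With the glial and endothelial level as a covariate the difference from Chat bacTRAP was -0.20 ± 0.16 (edgeR, adjusted p = 0.51) for hTDP-43 A315T and -0.46 ± 0.15 (0.022) for hTDP-43 WT. The limit of this covariate given for Nrxn3 holds here too.

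Unc13a and Elavl3 gave no call between genotypes in MN-TRAP with all libraries in the fit. Unc13a stood at 1044, 989, 637 and 751 in hTDP-43 A315T at 14 weeks against 672, 437, 279, 718 and 638 for hTDP-43 WT and 1007, 620, 725 and 669 for Chat bacTRAP. The log2 differences were 0.61 ± 0.27 and 0.26 ± 0.29 (edgeR, adjusted p = 0.16 and 0.58), and the 95% interval against Chat bacTRAP ran from -0.30 to 0.83. For Elavl3 they were 0.13 ± 0.20 and 0.22 ± 0.21 (0.73 and 0.52), with intervals of -0.26 to 0.53 and -0.19 to 0.64. None of these differences passed, and the size that these libraries could detect was not tested.

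**Figure D4:**
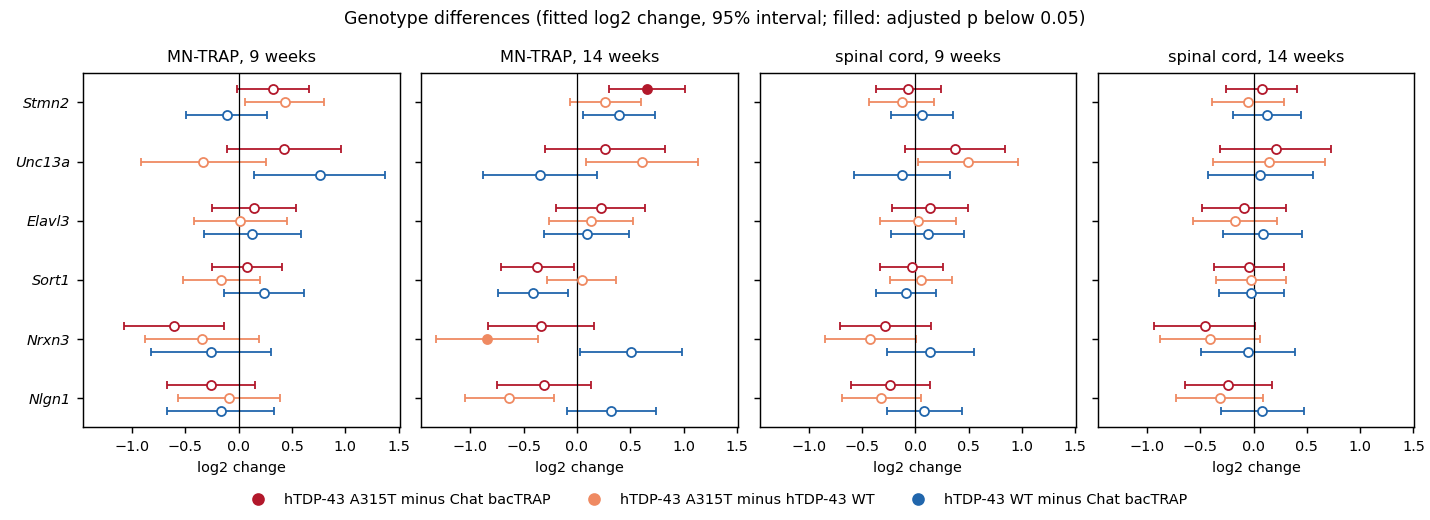
Fitted log2 differences between genotypes (x axis) with 95% intervals for each gene (y axis), in MN-TRAP and spinal cord at 9 and 14 weeks; filled points have an adjusted p below 0.05. Only Stmn2 (0.66) and Nrxn3 (-0.84) are filled, both in MN-TRAP at 14 weeks, and in cord 1 interval of 36 leaves out 0, that of Unc13a at 9 weeks between hTDP-43 A315T and hTDP-43 WT (0.02 to 0.96).

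The libraries in doubt weighed heavily on the MN-TRAP contrasts. Without all 7, which left 1 library of hTDP-43 WT at 9 weeks, replicate 2 with 1891 of Unc13a and 6092 of Sort1, that is then assumed to vary like the other groups, 13 of 36 combinations passed instead of 2, and 5 of 36 did so without the 3 libraries with Lamr1-ps1 reads or without the 4 shallow ones. The share of all genes rose too. Without the 7 it was 27.6%, 20.1% and 31.2% at 14 weeks for hTDP-43 A315T against Chat bacTRAP, hTDP-43 A315T against hTDP-43 WT and hTDP-43 WT against Chat bacTRAP, and 8.45%, 26.2% and 22.3% at 9 weeks. The control libraries that were kept included the 4 MN-TRAP libraries with the most glial RNA, whereas all of hTDP-43 A315T were low in it, and the part of this in the calls was not tested. The 13 were 2 of Stmn2 at 9 weeks (0.60 and 0.70 above Chat bacTRAP and hTDP-43 WT) and 1 at 14 weeks (0.74 above Chat bacTRAP), Nrxn3 at 14 weeks (-0.97 from hTDP-43 WT) and at 9 weeks (-0.93 from Chat bacTRAP), Nlgn1 at 14 weeks (-0.69 from hTDP-43 WT), 4 of Sort1 and 3 of Unc13a. Those of Sort1 were -0.63 for hTDP-43 A315T and -0.69 for hTDP-43 WT against Chat bacTRAP at 14 weeks, and -0.75 between hTDP-43 A315T and hTDP-43 WT and 0.81 between the control lines at 9 weeks. Those of Unc13a were 0.70 between hTDP-43 A315T and hTDP-43 WT at 14 weeks, -1.01 between them at 9 weeks and 1.46 between the control lines at 9 weeks. The values at 9 weeks that involve hTDP-43 WT rest on its 1 library. At 9 weeks Stmn2 was higher in hTDP-43 A315T than in hTDP-43 WT by 0.72 ± 0.20 (edgeR, adjusted p = 0.0085, with 18.2% of all genes called) without the libraries with Lamr1-ps1 reads, of which replicate 3 of hTDP-43 WT held the highest Stmn2 value of its group, 110683. With the MN-TRAP libraries alone in the fit 0 of 36 combinations passed, and of 16520 genes tested 1 passed between the control lines at 14 weeks and 0 in the other 5 contrasts (486 to 2863 with an unadjusted p below 0.05 over the 6), so that the 0 is not particular to the members. By DESeq2 4 combinations passed. Shares of all genes by DESeq2 and without the shallow libraries are not given here, so these counts cannot be called particular to the members.

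In whole cord none of the 36 combinations passed by edgeR, and 1 of 36 had an unadjusted p below 0.05, that of Unc13a between hTDP-43 A315T and hTDP-43 WT at 9 weeks. Few genes passed at all, 0.0212% of those tested for hTDP-43 A315T against Chat bacTRAP, 0.0265% against hTDP-43 WT and 0.00531% between the control lines at 14 weeks, and 0.0425%, 0.0212% and 0.0% at 9 weeks. Stmn2 was the most even member. Its cord group means ran from 21525 ± 652 (hTDP-43 A315T, 9 weeks, n = 5) to 23389 ± 2504 (hTDP-43 WT, 9 weeks, n = 6), and the 95% intervals of its 6 genotype differences lay between -0.43 and 0.44 on the log2 scale.

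Nrxn3 was lower in cord of hTDP-43 A315T than in each control at both ages, with intervals that included 0. It stood at 3763, 3831, 3904 and 3608 in hTDP-43 A315T at 14 weeks, 4733, 4656, 3702, 4491 and 7320 for hTDP-43 WT and 3770, 4643, 4713, 5121 and 8465 for Chat bacTRAP. At 9 weeks it ran from 3166 to 3872 (median 3393, n = 5), from 3434 to 5866 (median 4706, n = 6) and from 3243 to 5634 (median 4274, n = 6). The log2 differences at 14 weeks were -0.41 ± 0.24 from hTDP-43 WT and -0.46 ± 0.24 from Chat bacTRAP, and at 9 weeks -0.42 ± 0.22 and -0.28 ± 0.22 (edgeR, adjusted p = 1.0 in each). Those at 14 weeks were -0.23 without replicate 5 of hTDP-43 WT (7320) and -0.24 without replicate 5 of Chat bacTRAP (8465). Limma-voom with quality weights gave -0.33 ± 0.10, -0.33 ± 0.10, -0.45 ± 0.09 and -0.28 ± 0.09, all past the threshold (adjusted p = 0.013, 0.022, 3.4e-04 and 0.035). By that tool 17.9%, 17.7%, 26.7% and 9.96% of all genes passed in these contrasts. These 4 contrasts share the mutant libraries of each age.

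By the same tool, and in no other, 3 further cord differences passed at 9 weeks, in the contrasts where 26.7% and 9.96% of all genes did. Unc13a was higher in hTDP-43 A315T by 0.55 ± 0.11 than in hTDP-43 WT (limma-voom, adjusted p = 2.2e-04) and by 0.45 ± 0.10 than in Chat bacTRAP (0.0045). It stood at 1554 to 2167 (median 2033) in hTDP-43 A315T, 1101 to 1636 (median 1334) for hTDP-43 WT and 905 to 2503 (median 1454) for Chat bacTRAP. By edgeR the differences were 0.49 ± 0.24 and 0.37 ± 0.24 (adjusted p = 1.0 for both), the second 0.58 without replicate 2 of Chat bacTRAP. Nlgn1 was lower by 0.38 ± 0.09 than in hTDP-43 WT (limma-voom, 9.6e-04), and its 5 mutant libraries, 516 to 537, spanned far less than the 421 to 925 of hTDP-43 WT. The edgeR value was -0.32 ± 0.19.

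Between 9 and 14 weeks 1 of 36 combinations passed. Unc13a was lower at 14 weeks in MN-TRAP of hTDP-43 WT by 1.09 ± 0.30 on the log2 scale (edgeR, adjusted p = 0.017). It stood at 516, 1891 and 896 at 9 weeks and at 672, 437, 279, 718 and 638 at 14 weeks, so that the groups overlapped and replicate 2 at 9 weeks lay far above all others. Without that library the difference was -0.44 ± 0.34 (adjusted p = 0.65). The shares of all genes that passed in MN-TRAP were 10.7% in hTDP-43 WT, 6.28% in Chat bacTRAP and 0.0106% in hTDP-43 A315T, and 0.0% passed in cord in each genotype.

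In hTDP-43 A315T the members did not move detectably with symptom onset. The MN-TRAP log2 differences between 14 and 9 weeks were -0.09 ± 0.17 for Stmn2, -0.14 ± 0.27 for Unc13a, 0.12 ± 0.20 for Elavl3, 0.01 ± 0.17 for Sort1, 0.15 ± 0.24 for Nrxn3 and 0.16 ± 0.21 for Nlgn1 (edgeR, adjusted p of 0.92 or above). The interval for Stmn2 ran from -0.42 to 0.25 and that for Unc13a from -0.67 to 0.38. In Chat bacTRAP the MN-TRAP libraries of 14 weeks were higher in Sort1 than those of 9 weeks, 4080 to 6456 against 2971 to 4065 without overlap (0.46 ± 0.18, edgeR adjusted p = 0.099), and lower in Stmn2 (-0.43 ± 0.18, 0.14). In hTDP-43 WT Nlgn1 was at 751 to 1475 at 14 weeks and 580 to 676 at 9 weeks, also without overlap (0.70 ± 0.25, 0.054). The Sort1 difference passed with median-ratio scaling (0.57 ± 0.17, 0.034), by DESeq2 (0.57 ± 0.16, 0.012) and without the library with Y-linked reads (0.55 ± 0.19, 0.037), that of Stmn2 without replicate 2 of Chat bacTRAP at 9 weeks (-0.59 ± 0.18, 0.034), and that of Nlgn1 without replicate 1 (0.80 ± 0.25, 0.034) or 5 (0.75 ± 0.26, 0.040) of hTDP-43 WT at 14 weeks. Leaving out other single libraries lowered some of these values: Sort1 was at 0.30 (0.33) without replicate 1 of Chat bacTRAP at 14 weeks, and Stmn2 at -0.24 (0.53) without replicate 4 of Chat bacTRAP at 9 weeks. Nrxn3 in hTDP-43 WT, 0.65 ± 0.28 (0.11), passed without replicate 1 at 9 weeks (0.94 ± 0.31, 0.030).

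Whether a genotype difference itself changed between the ages was tested for hTDP-43 A315T against each control. None of these 24 member values passed by edgeR, with 1.72% and 0.143% of all genes in MN-TRAP, against Chat bacTRAP and hTDP-43 WT, and 0.0% in cord against either. For Stmn2 the difference from Chat bacTRAP was larger at 14 weeks by 0.34 ± 0.25 (adjusted p = 0.58), and for Nrxn3 the difference from hTDP-43 WT moved by -0.50 ± 0.37 (0.55). A change at 14 weeks and not at 9 weeks was therefore not shown for either gene. The sole value of these with an unadjusted p below 0.05 was that of Unc13a against hTDP-43 WT in MN-TRAP, 0.94 ± 0.40 (adjusted p = 0.26), and it contains the library of 1891 counts. Without the 7 libraries in doubt, which left that library alone in hTDP-43 WT at 9 weeks, the value of Unc13a was 1.71 and that of Sort1 0.82.

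The 17 paralogs of the members were measured beside them. In hTDP-43 A315T 8 were higher and 4 lower in MN-TRAP than in cord, with a median of 0.27 against -0.10 over all genes. Of all genes tested, 28.7% were higher and 34.1% lower there. The most abundant stathmin was Stmn3, at 2908 CPM/kb in MN-TRAP and 1115 in cord, above Stmn2, and it was higher in MN-TRAP by 1.74 ± 0.18. Elavl4, another neuronal RNA-binding protein, had 41.4 CPM/kb in MN-TRAP, as much as Elavl3. It was higher than in cord by 1.27 ± 0.19, whereas Elavl3 did not pass in hTDP-43 A315T (-0.22 ± 0.14). Sorl1, a sorting receptor related to sortilin, was higher by 0.70 ± 0.13 while Sort1 was lower. Nrxn2 and Nlgn2 were higher by 0.50 ± 0.13 and 0.71 ± 0.15, and both exceeded Nrxn3 and Nlgn1 per length with 17.0 and 52.7 CPM/kb. Unc13c, at 3.24 CPM/kb, was lower by 1.81 ± 0.25, in the direction of Unc13a.

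Between genotypes at 14 weeks the paralogs that passed in MN-TRAP with hTDP-43 A315T included those named next, which were chosen after their values were seen and are not a full list. Against Chat bacTRAP, Stmn1 (0.90, edgeR adjusted p = 0.011) and Stmn3 (0.75, 0.045) were higher and Unc13c (-1.17, 0.027) was lower. Against hTDP-43 WT, Unc13c (-1.43, 0.0094) was lower and Nrxn2 (0.57, 0.038) was higher. Of all 17 paralogs, 2 were higher and 1 lower against Chat bacTRAP, and 1 higher and 2 lower against hTDP-43 WT. Of all genes tested, 7.92% were higher and 5.98% lower in the first contrast, and 0.929% and 6.31% in the second. Of the 3 stathmin paralogs only Stmn4 did not pass against Chat bacTRAP (0.02, 0.98).

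**Figure D5:**
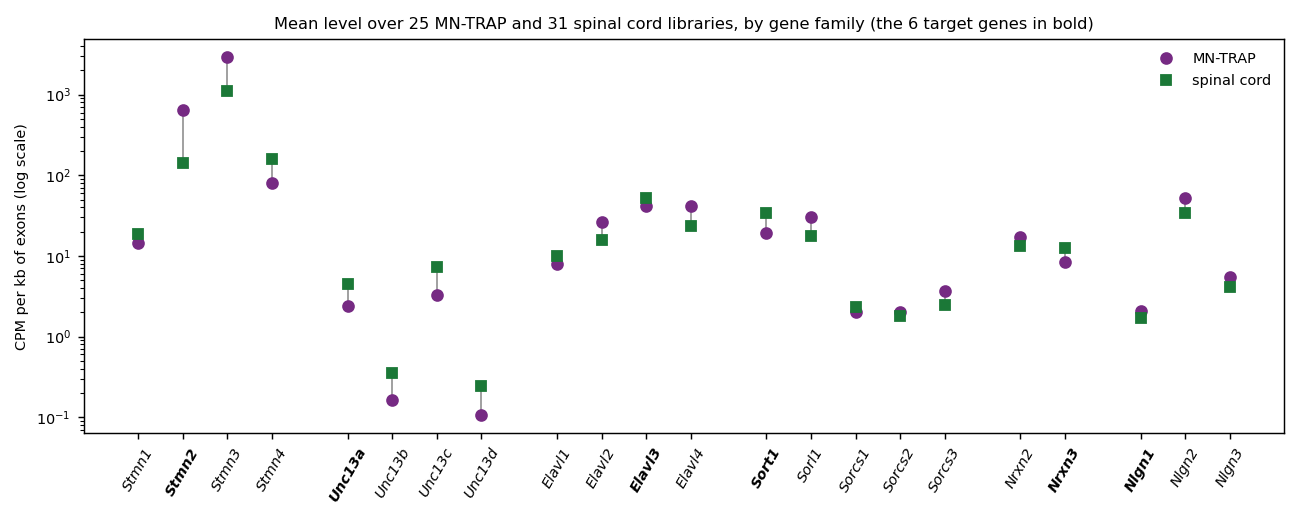
Mean CPM per kilobase of exons (y axis, log scale) of the 6 genes (bold) and of paralogs (x axis) over 25 MN-TRAP libraries (circles) and 31 cord libraries (squares), joined by lines. Stmn2 and Stmn3 are the highest in MN-TRAP, at 637 and 2908, and the Unc13 genes and Nlgn1 among the lowest.

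Other genes whose RNA TDP-43 binds or processes were described by their counts, beside the 62.8% of all genes that passed between MN-TRAP and cord in hTDP-43 A315T, 28.7% higher and 34.1% lower. Of 10 long neuronal genes bound by TDP-43, 3 were higher and 2 lower in MN-TRAP than in cord in hTDP-43 A315T (median 0.19), among them Kcnip4 (1.34 ± 0.13), a potassium channel partner, and Cntnap2 (0.70 ± 0.13), an axonal adhesion protein. Cadps, a factor of dense-core vesicle release and the most abundant of the list, was higher by 0.27 ± 0.12 and did not count among those past the threshold. Between genotypes at 14 weeks 1 of 10 passed with hTDP-43 A315T, Kcnd2, lower than in hTDP-43 WT (-1.01, edgeR adjusted p = 0.027). In MN-TRAP 7.24% of all genes passed in that contrast, and 13.9% against Chat bacTRAP. Of 14 transcripts with an exon or 3′ end processed by TDP-43, 4 were higher and 4 lower in MN-TRAP (median 0.03). They included Nefl, the light neurofilament chain, at 2.53 ± 0.15, and Map1b, a microtubule protein, at 1.12 ± 0.19, while Eif4h, a translation factor, was at -0.03 ± 0.13. Tardbp, which encodes mouse TDP-43, differed by -0.04 and -0.03 from the controls (0.93 and 0.94). Reads were aligned to the mouse genome, and whether reads of the human transgene entered this count was not tested.

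Partners of the members at the synapse and in axon growth followed no single direction. Of 17 genes of the release machinery and synaptic adhesion, 8 were higher and 3 lower in MN-TRAP in hTDP-43 A315T (median 0.12). This stood beside 28.7% of all genes higher and 34.1% lower. The most abundant, Snap25, Vamp1 and Cplx1, all of the vesicle fusion machinery, were higher by 0.89 ± 0.11, 1.04 ± 0.14 and 0.88 ± 0.13, whereas Unc13a was lower. None of the 17 passed between hTDP-43 A315T and a control at 14 weeks by edgeR. Of 7 partners in axon growth and neurotrophin signalling, 2 were higher and 2 lower (median -0.04): Tubb3, the neuronal beta-tubulin, was higher by 2.11 ± 0.21 and Gap43, a protein of growing axons, by 0.48 ± 0.10, while Ntrk2, the BDNF receptor, was lower by 0.23 ± 0.11 without passing. None of the 7 passed between hTDP-43 A315T and a control.

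The genes nearest to each member in pattern were found by the mean absolute difference of 12 centred group means of log2 CPM, among the 11353 genes that averaged 5 CPM or more. Stmn2 lay nearest to Fgf1 (0.04 log2 units) and Rgs4 (0.06), against a median of 1.06 over the genes searched. Nrxn3 lay nearest to Fmr1 and Tnpo1 (0.07 each, median 0.48), Sort1 to Dag1 and Cmtm4 (0.08 each, median 0.53), and Unc13a to Wdr81 (0.09) and Sf3a2 (0.10, median 0.58). Elavl3 lay nearest to Osbp (0.05) and Sec24b (0.06, median 0.37), and Nlgn1 to Actr3 and Fbxo33 (0.05 each, median 0.36). No member was among the 2 nearest of another.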

How the data were processed

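Ribosome-bound and whole spinal cord RNA was sequenced in 56 libraries of 12 groups. The deposited count files give raw reads for each Ensembl gene, which the authors aligned to GRCm38 (mm10) with STAR and summed with featureCounts. A second deposited file of each library holds a signal, those counts after division by a library-specific size factor, printed here as normalized counts. Symbols, positions and exon lengths come from GENCODE M21 and were found for 42462 of 43629 genes. Groups were read from the sample titles. The 6 genes and all lists were chosen with earlier results of these data known.

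In R 4.3.3, edgeR 4.0.16 (filterByExpr, TMM, glmQLFit with robust estimation, glmQLFTest) fitted 1 model of 12 groups to all libraries and 18838 genes. Passing means an adjusted p below 0.05 (Benjamini-Hochberg over all genes tested), and errors of log2 differences are standard errors of that fit. Named were the 6 genes, the 3 most abundant genes of each list in MN-TRAP, the most abundant paralog of each family, the 2 nearest genes in pattern, and Chat, Gfap and Mbp. Further genes, such as Stmn1, Stmn4, Kcnd2 and Tardbp, were named outside this rule, some after their values were seen. The script was tested on simulated data. Alternatives were DESeq2 1.42.0, median-ratio scaling, no filter, a 2-fold minimum, limma-voom (limma 3.58.1), fits of 1 fraction or of 1 fraction and age, a replicate block, a glial covariate, and omission of libraries. The joint omission of 7 libraries was added after the values were seen. Some genes of the lists are not reported here by name.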

Additional observations from a re-analysis of the deposited data

Results flagged for a closer look

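Of 66 sets of libraries of 1 gene and 1 group, 9 held a library far from the rest of its group, a distance that chance alone gives in about 1 in 20. In MN-TRAP, Stmn2 stood at 141099 in replicate 1 of hTDP-43 A315T and at 53060 in replicate 1 of Chat bacTRAP at 14 weeks, the libraries at the outer ends of the genotype difference that passed. Elavl3 stood at 15287 in the same hTDP-43 A315T library, and Nlgn1 at 331.4 in replicate 3 of hTDP-43 A315T at 9 weeks. In cord, replicate 3 of hTDP-43 A315T at 14 weeks held the most Stmn2 (25612) and the least Unc13a (1344) of its group. Nrxn3 stood at 7320 in replicate 5 of hTDP-43 WT and at 8465 in replicate 5 of Chat bacTRAP at 14 weeks, and the same library of hTDP-43 WT held 1041 of Nlgn1.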

How the results depend on the processing

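The 14 of 18 combinations that passed between MN-TRAP and cord became 13 to 15 when each of 56 libraries was left out in turn, and 3, all of Stmn2, with a minimum change of 2-fold; 15 passed by DESeq2 and with median-ratio scaling, 17 by limma-voom, 13 without the libraries with Lamr1-ps1 reads, 11 without the shallow ones, 15 without those high in mitochondrially encoded RNA and 10 without the 7 libraries in doubt. In the MN-TRAP genotype contrasts, where 2 of 36 passed, 4 did by DESeq2 and with median-ratio scaling, 1 by limma-voom, 0 with libraries of the same fraction or of the same fraction and age, 0 with the 2-fold minimum, 5 without the libraries with Lamr1-ps1 reads, 5 without the shallow ones, 13 without the 7 libraries in doubt, and 0 to 4 without single libraries. In the cord genotype contrasts 0 passed, 0 without any single library, and 7 by limma-voom. Between ages, where 1 passed, 2 did by DESeq2, with median-ratio scaling and without the library with Y-linked reads, 0 by limma-voom and with the same fraction only, 3 without the shallow libraries, 4 without the 7 libraries, and 0 to 2 without single libraries. Of the interactions 0 passed, with 2 without the Lamr1-ps1 libraries, 4 without the 7 and 0 to 1 without single ones. The count of genes with their highest group in MN-TRAP, 2, was 2 without each single library. For most of these settings the shares of all genes are not given here, so the counts cannot be called particular to the members. The causes were not tested. Of 4452 values of single genes under an alternative 4351 stayed on their side of the threshold, 73 came to pass and 28 no longer did. None of the 538 that passed in either fit turned direction, but 254 of the 3914 that passed in neither did, such as the Unc13a difference of hTDP-43 A315T from hTDP-43 WT in MN-TRAP at 9 weeks, -0.33, which was 0.31 without replicate 2 of the latter group. Leaving out the 7 libraries was chosen after seeing the data.

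Same-numbered libraries of both fractions did not deviate together (25 pairs, r from -0.284 to 0.181, 5 above 0.1, own number best in 6), and with the replicate number as a block 14, 2, 0, 1 and 0 combinations passed in the order above. The shallowest library held 8 reads of Unc13a, and gene counts do not show splicing.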
